A study of Homo sapiens with 6 samples.

Results

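The messages of 42 mitotic regulators were followed in SH-SY5Y cells. They encode G2/M kinases and cyclins, spindle checkpoint proteins, kinetochore and cytokinesis proteins, condensin subunits and the transcription factors FOXM1 and MYBL2. The genes were taken by name from the 60612 genes of the deposited table. Each of the 42 names stood on a single row, and all 42 were high enough to be tested, among 13984 tested genes. SH-SY5Y is an established human neuroblastoma line of neuronal type. All 6 libraries came from SH-SY5Y cells infected with a vector. In 3, titled stuffer, it was a control vector, and these are the control libraries. The other 3 carry the label CDKN2B-AS1 overexpression and are called OE-labelled. No label gives the vector's promoter or the time after infection. Nor does one say that replicates are separate cultures: the p-values weigh a spread that may be technical. The comparison asked which of these messages differ when CDKN2B-AS1, a long noncoding RNA antisense to the cell cycle inhibitor gene CDKN2B, is labelled as overexpressed.

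Cells enter mitosis when CDK1, bound to cyclin A or cyclin B, is activated by CDC25 phosphatases, and Polo and Aurora kinases then build the spindle. The spindle checkpoint, through the BUB and MAD proteins and the kinase TTK, holds back the CDC20-bound anaphase-promoting complex until every kinetochore is attached. Once it is satisfied, the complex marks securin and the B cyclins for destruction and separase opens cohesin. Most of these genes are transcribed in late S phase, G2 and mitosis, under the MuvB complex with B-MYB and FOXM1, and are repressed in resting cells by the related DREAM complex. Short promoter elements, the CHR with the letters TTTGAA and CCAAT boxes bound by NF-Y, are textbook features of such promoters. In bulk RNA, a smaller share of cells in G2 and mitosis and less message per such cell cannot be told apart.

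The RefSeq promoter table (GRCh38.p14), with 250 bases before and 50 after each start, held 35 of the 42 genes. AURKA, TPX2, BIRC5, UBE2C, TTK, BUB3 and FOXM1 were not matched. The letters TTTGAA, searched on both strands, stood in 25 of the 35 windows (71.4%), against 15.4% of the 27305 windows of all genes. From 100 bases before the start onwards they stood in 21 (60.0%), against 6.91% of all windows. CCAAT, also on both strands, stood in 25 of the 35 (71.4%) against 35.7% of all, and at least 2 matches in 18 (51.4%) against 11.3%. A match describes letters in a window, not a bound site.

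The last 100 bases before the start are shown, 5′ to 3′ on the gene's strand, for the gene that rose, MKI67, for a pair of genes with higher levels in every OE-labelled library (PRC1, INCENP), for the 3 with lower levels in each (CCNB2, PTTG1, MAD2L1) and for a pair whose groups overlapped (PLK1, CCNB1). Capitals mark TTTGAA and CCAAT on either strand.
MKI67 (chr10:128126424-128126523, minus strand): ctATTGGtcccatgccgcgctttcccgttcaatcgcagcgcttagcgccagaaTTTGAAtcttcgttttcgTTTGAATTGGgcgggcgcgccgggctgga
PRC1 (chr15:90994536-90994635, minus strand): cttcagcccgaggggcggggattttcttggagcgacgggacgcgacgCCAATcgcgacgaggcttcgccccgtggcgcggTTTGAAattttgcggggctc
INCENP (chr11:62123911-62124010, plus strand): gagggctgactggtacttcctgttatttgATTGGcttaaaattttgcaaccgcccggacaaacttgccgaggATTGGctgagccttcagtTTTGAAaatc
CCNB2 (chr15:59105046-59105145, plus strand): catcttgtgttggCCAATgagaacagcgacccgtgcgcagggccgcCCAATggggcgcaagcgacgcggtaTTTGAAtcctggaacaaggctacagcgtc
PTTG1 (chr5:160421755-160421854, plus strand): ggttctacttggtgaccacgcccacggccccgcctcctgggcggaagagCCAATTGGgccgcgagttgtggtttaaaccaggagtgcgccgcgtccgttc
MAD2L1 (chr4:120066849-120066948, minus strand): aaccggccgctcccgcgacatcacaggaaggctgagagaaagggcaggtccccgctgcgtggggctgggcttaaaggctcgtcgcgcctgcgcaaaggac
PLK1 (chr16:23678789-23678888, plus strand): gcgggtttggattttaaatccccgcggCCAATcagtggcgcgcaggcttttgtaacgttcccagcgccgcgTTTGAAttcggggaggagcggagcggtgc
CCNB1 (chr5:69167050-69167149, plus strand): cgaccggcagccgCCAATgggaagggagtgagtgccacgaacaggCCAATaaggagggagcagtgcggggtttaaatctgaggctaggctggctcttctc
MKI67 held a pair of TTTGAA matches, at 47 and 29 bases before the start, of which the second shares a base with a CCAAT match. CCNB2 and PLK1 held TTTGAA at the same 29 bases before the start. In MAD2L1 the single TTTGAA match of the window lay after the start, and PTTG1 and CCNB1 had none. Matches thus stood in promoters of genes with higher, lower and overlapping levels. The 25 genes with TTTGAA had a median log2 fold change of 0.23, from -0.61 to 1.13, and the 10 without it 0.09, from -0.33 to 0.67. For CCAAT the order was the other way. The 25 genes with it had a median of 0.14, from -0.61 to 1.13, and the 10 without it 0.33, from -0.33 to 0.49. Neither difference was tested.

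The targeted RNA was low in every library. CDKN2B-AS1 stood at 0.272, 0.288 and 0.191 FPKM in control replicates 1, 2 and 3 and at 0.338, 0.304 and 0.353 FPKM in the OE-labelled replicates, so groups are named by their labels. FPKM is fragments per kilobase of gene length, scaled to the library's assigned fragments. Depth recovered from the values was 29048596 to 45102020 fragments in the control and 20466583 to 48996425 in the OE-labelled libraries. The mitotic genes rested on 217 to 28281 fragments per gene and library. Control replicate 3 lay apart on the second principal component of all tested genes, at -40.6 against -4.86 to 17.8 in the others. The first component, with 31.5% of the variance, separated the groups. Control libraries lay at -26.3 to -15.1 on it and OE-labelled libraries at 18.9 to 24.1. Of 12 markers of adrenergic neuroblastoma cells 11 were at 1 FPKM or more in every library, with sums of 1220 to 1370 FPKM in control libraries and 1290 to 1410 FPKM in OE-labelled libraries. The 5 epithelial markers were all under 1 FPKM with KRT5 and KRT14 at 0, with sums of up to 0.662 FPKM. Of the 5 immune markers 4 were under 1 FPKM in every library, PTPRC and CD3E among them at 0, and the list summed to 0.547 to 1.93 FPKM in control and 0.889 to 1.89 FPKM in OE-labelled libraries. Of the 6 fibroblast markers 4 were at 1 FPKM or more in every library, and the list summed to 26.6 to 40.3 and 29.8 to 40.1 FPKM, ranges that overlap. Of the 5 Schwann and glial markers 1 was at 1 FPKM or more in every library, with sums of 3.03 to 6.92 and 3.34 to 3.54 FPKM.

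All 42 messages were above 1 FPKM in every library of both groups. Levels ran over 2 orders of magnitude. FPKM divides by the deposited gene length, which can far exceed a gene's median coding transcript (BUB3, 8175 against 1128 bases). Ranks between genes are therefore approximate. UBE2C, the ubiquitin-conjugating enzyme of the anaphase-promoting complex, was highest at 340.0 ± 13.8 FPKM in control libraries and 363 ± 92.1 FPKM in OE-labelled libraries (SD, n = 3 each). CCNB1, BIRC5, CDC20, PTTG1 and MYBL2 also had means above 100 FPKM. At the low end were CENPE, INCENP and ASPM, with means under 5 FPKM. Summed over the 42 genes the level was 1943.9, 2038.2 and 2059.6 FPKM in control libraries and 2053.0, 2085.7 and 2050.2 FPKM in OE-labelled replicates 1, 2 and 3. These sums, which the most abundant messages dominate, overlap between the groups.

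**Figure D1:**
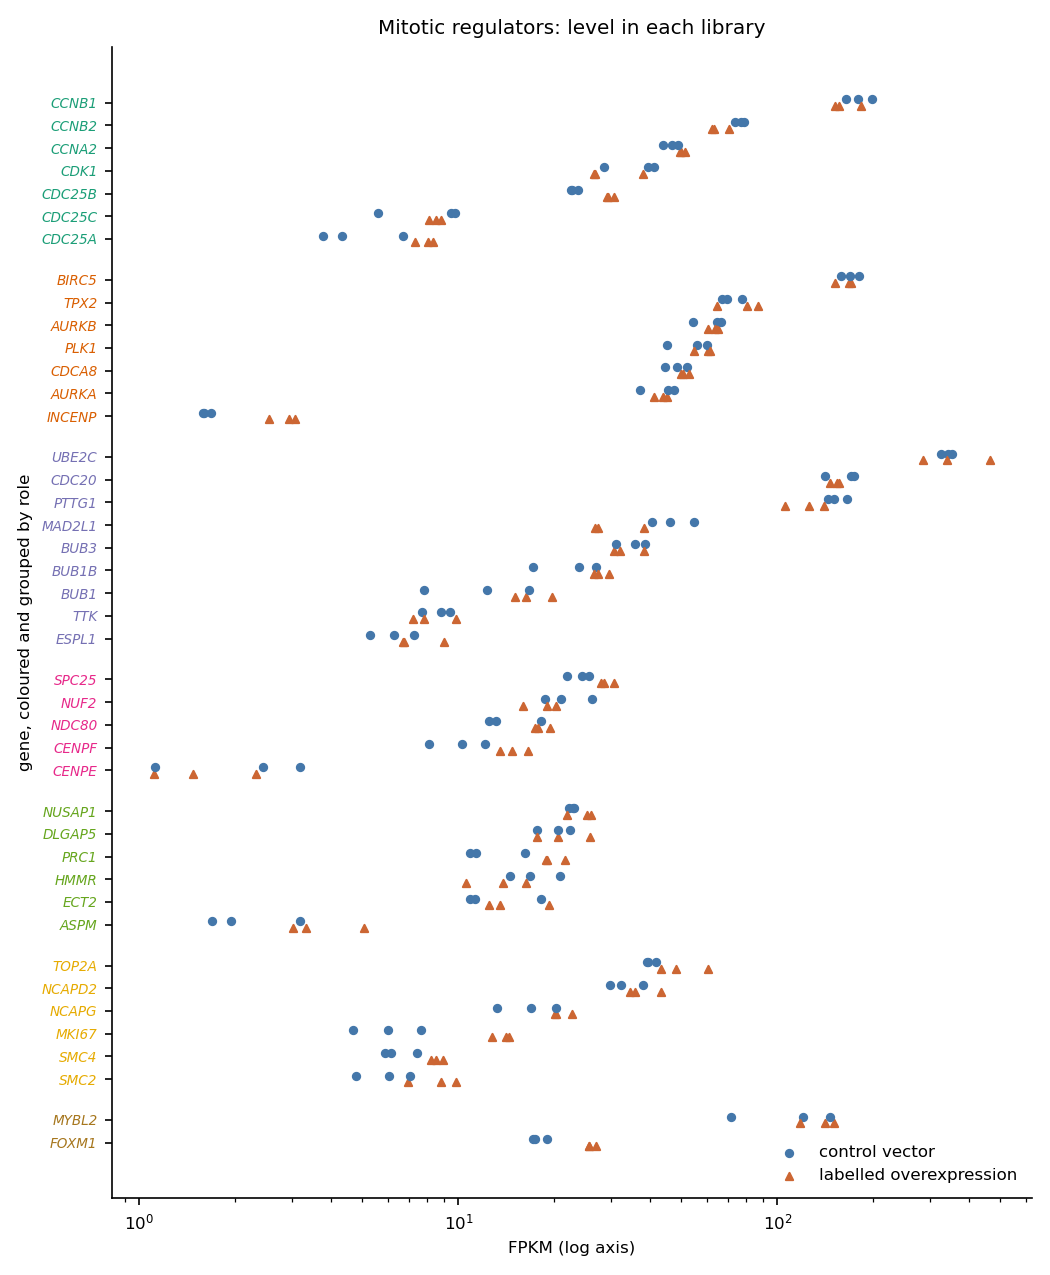
Level of each of the 42 mitotic genes in FPKM on a log axis, with 1 point per library (circles for the 3 control, triangles for the 3 OE-labelled libraries), genes grouped and coloured by role. The triangles lie above all circles for 11 genes, MKI67 and FOXM1 among them (26.2%, background 14.2%), and below them for 3 (7.14%, background 9.9%).

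MKI67 was the gene of the 42 that passed the test, and it rose 2.19-fold. The other 41 did not pass. Of the 42 genes 1 was called higher (background 0.529% of all tested genes) and 0 lower (background 0.608%), at a Benjamini-Hochberg adjusted p of 0.05 in limma-trend over all tested genes. At an unadjusted p under 0.05, 12 of the 42 were higher and 3 lower, beside 10.4% and 7.34% of all tested genes. The log2 fold change was above 0 in 30 of 42 (71.4%), against 56.8% of all tested genes. The OE-labelled libraries lay above all control libraries for 11 genes (26.2%, background 14.2%) and below them for 3 (7.14%, background 9.9%). The median log2 fold change was 0.13, beside 0.05 over all tested genes. All fold changes are on the log2(FPKM + 0.5) scale, OE-labelled minus control, and low genes' differences are understated. The 95% intervals lay within 1.5-fold in both directions for 19 of the 42 and within 2-fold for 36. For 23 genes the interval reached past 1.5-fold in some direction. That of MKI67 lay wholly above it, at 1.65-fold to 2.91-fold.

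**Figure D2:**
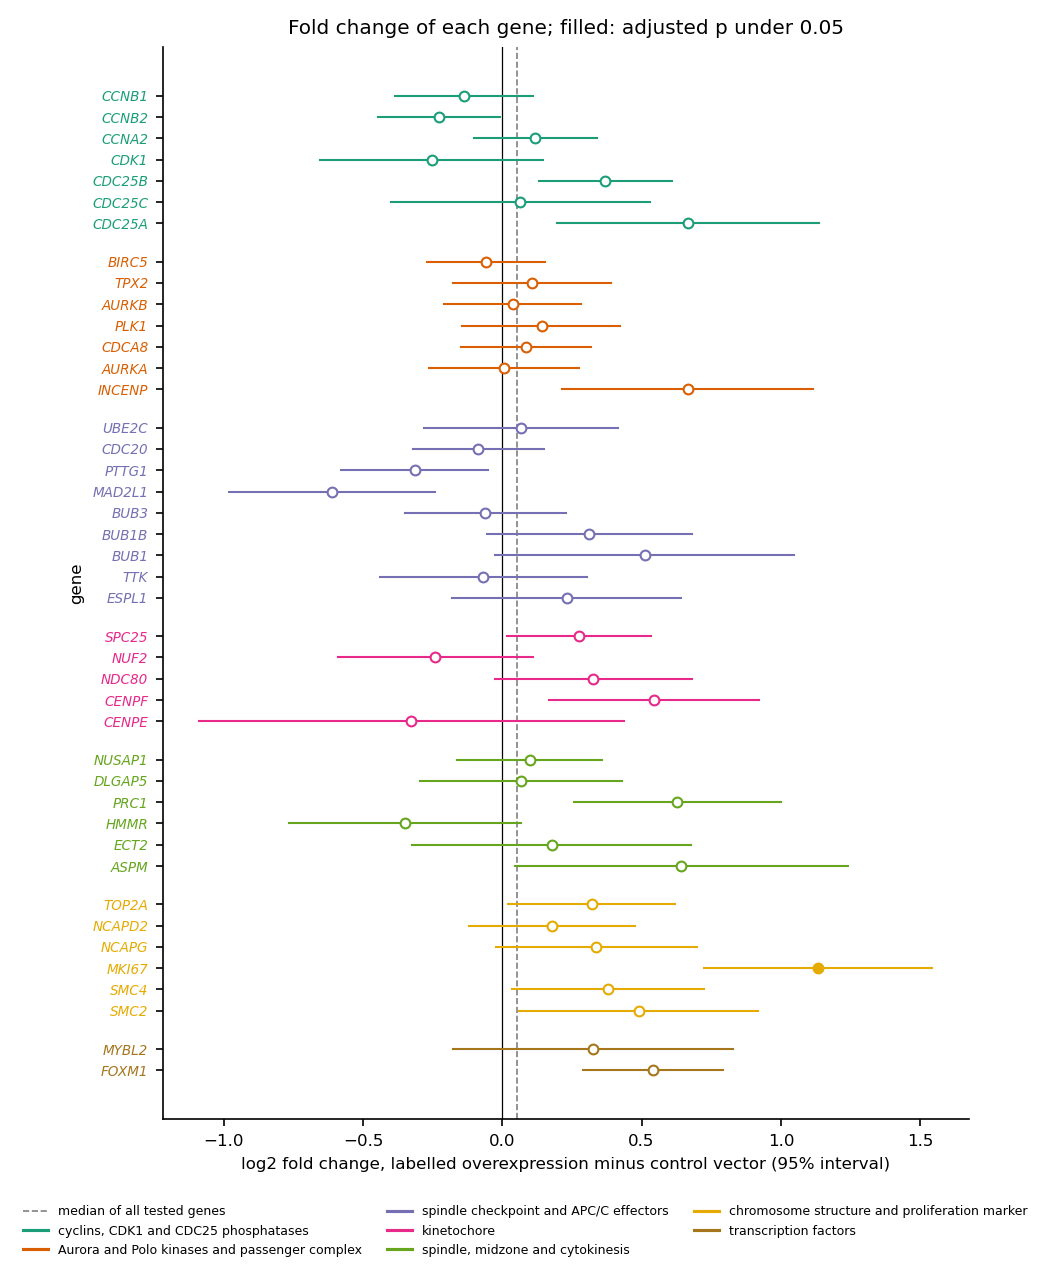
Log2 fold change of each gene (point) with its 95% interval (line), OE-labelled minus control, grouped by role; a filled point passed an adjusted p of 0.05 and the dashed line is the median of all tested genes at 0.05. MKI67 is the filled point, at 1.13, and MAD2L1 is lowest at -0.61.

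**Figure D3:**
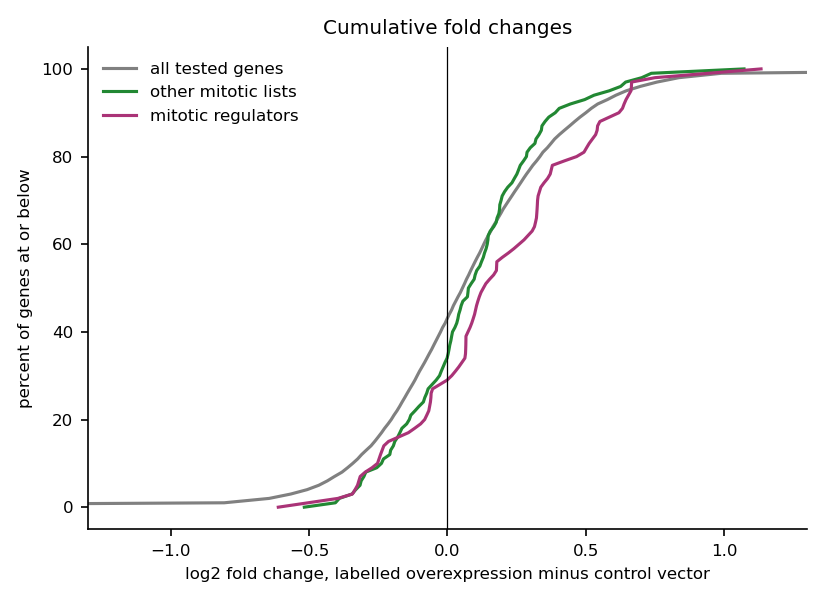
Cumulative percent of genes at or below each log2 fold change for the 42 mitotic regulators, the 127 tested genes of the other mitotic lists and the 13984 tested genes. The medians are 0.13, 0.08 and 0.05, and the curve of the mitotic regulators lies to the right of the others over most of its upper range.

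Among genes of chromosome structure, MKI67 encodes Ki-67, the nuclear antigen that coats mitotic chromosomes and marks cycling cells. MKI67 (ENSG00000148773, chromosome 10, 128096659 to 128126423, minus strand, hg38) stood at 4.66, 7.62 and 6.02 FPKM in control replicates 1, 2 and 3. In the OE-labelled libraries MKI67 stood at 14.1, 12.7 and 14.4 FPKM. Each of these was above every control value, and the groups did not overlap. The log2 fold change was 1.13 (SE 0.18, 95% interval 0.73 to 1.54, limma-trend, Benjamini-Hochberg adjusted p = 0.0332). MKI67 has the longest transcript length of the 42, at 12047.5 bases as the median of its annotated coding transcripts. With the trend of fold changes on transcript length removed, the log2 fold change of MKI67 was 0.82 and did not pass (limma-trend, Benjamini-Hochberg adjusted p = 0.0892). The call also depended on single libraries. It was lost without control replicate 1 (0.97, adjusted p = 0.0907) or 2 (1.296, adjusted p = 0.0820), and without OE-labelled replicate 1 (1.11, adjusted p = 0.130), 2 (1.19, adjusted p = 0.122) or 3 (1.099, adjusted p = 0.0924), settings in which 0 to 3 genes of the whole table passed. Without control replicate 3, the library that lay apart, MKI67 passed at 1.14 (adjusted p = 0.0467) and the median of the 42 genes was 0.14.

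The other 5 genes of this role had log2 fold changes from 0.18 to 0.49 and did not pass. TOP2A, the topoisomerase that untangles sister chromatids, stood at 41.6, 39.4 and 38.9 FPKM in control libraries and 48.1, 43.1 and 60.5 FPKM in OE-labelled libraries. SMC4, a core subunit of condensin, which compacts mitotic chromosomes, stood at 6.15, 5.88 and 7.41 against 8.20, 8.501 and 8.93 FPKM. The groups did not overlap for either gene, at log2 fold changes of 0.32 and 0.38 (limma-trend, Benjamini-Hochberg adjusted p = 0.251 and 0.241). SMC2, the partner of SMC4, had 0.49 with groups that overlapped, since OE-labelled replicate 2 at 6.97 FPKM lay below control replicate 3 at 7.03 FPKM. The condensin I subunits NCAPG and NCAPD2 had 0.34 and 0.18, with overlapping groups.

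FOXM1, the forkhead factor that activates G2/M genes, had the smallest p of the 41 genes that did not pass. FOXM1 (ENSG00000111206, chromosome 12, 2857680 to 2877174, hg38) stood at 17.1, 17.4 and 18.9 FPKM in control replicates 1, 2 and 3. In OE-labelled replicates 1, 2 and 3 FOXM1 stood at 25.6, 26.9 and 25.8 FPKM. The groups were tight and far from each other, at 17.8 ± 0.952 against 26.1 ± 0.716 FPKM (SD, n = 3 each). The log2 fold change was 0.54 (SE 0.11, 95% interval 0.29 to 0.79, limma-trend, Benjamini-Hochberg adjusted p = 0.0564). FOXM1 passed in 3 of 19 alternatives: with a filter of at least 5 FPKM on average (adjusted p = 0.0300), with a common total per library (adjusted p = 0.0308) and with array weights (adjusted p = 0.0389). Over all 19 its adjusted p ran from 0.0300 to 0.203. MYBL2, which encodes B-MYB, the factor that joins MuvB in S phase, varied more among controls. MYBL2 stood at 71.5, 120.3 and 146 FPKM in control libraries and 150.2, 141 and 117 FPKM in OE-labelled libraries, with overlapping groups and a log2 fold change of 0.32 (95% interval -0.18 to 0.83).

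**Figure D4:**
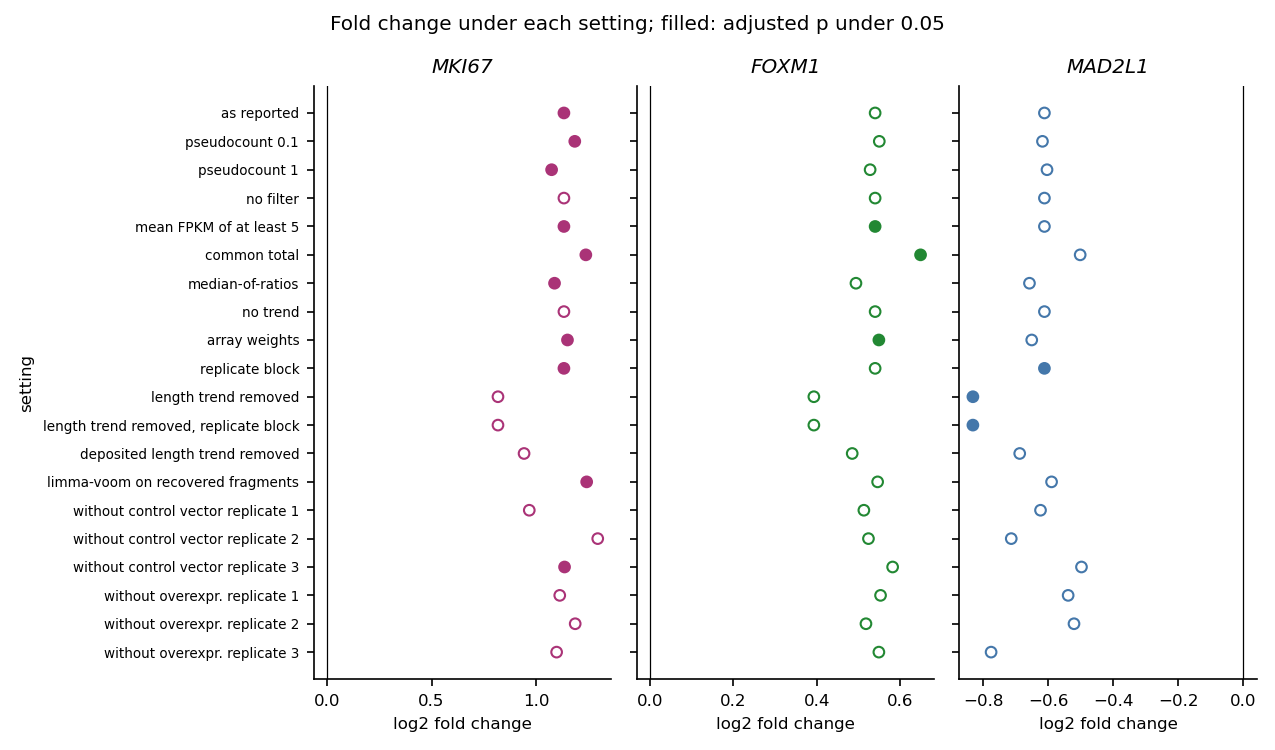
Log2 fold change (x axis) of MKI67, FOXM1 and MAD2L1 as reported and under 19 alternative settings (y axis); a filled point passed an adjusted p of 0.05. MKI67 passed in 9 of the 19, FOXM1 in 3 and MAD2L1 in 3, and no point crosses 0.

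The cyclins and CDK1 did not pass, and their log2 fold changes lay from -0.25 to 0.12. CDK1, the mitotic kinase itself, stood at 41.1, 28.6 and 39.4 FPKM in control libraries and 26.9, 26.7 and 37.8 FPKM in OE-labelled libraries. CCNB1, the main mitotic cyclin, stood at 179, 164 and 198 against 157, 152 and 184 FPKM. Groups overlapped for both genes, and the 95% interval of CCNB1 ran from 0.765-fold to 1.08-fold. CCNB2, the second B cyclin, was lower in every OE-labelled library, at 63.1, 62.4 and 70.6 FPKM against 73.9, 78.4 and 77.1 FPKM. Its log2 fold change of -0.23 did not pass (limma-trend, Benjamini-Hochberg adjusted p = 0.270). CCNA2, cyclin A2, which acts from S phase on, was higher in each, at 49.7, 50.04 and 51.5 against 43.9, 46.6 and 48.7 FPKM, a log2 fold change of 0.12.

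The CDC25 phosphatases, which remove inhibitory phosphates from CDKs, did not share a direction in every library. CDC25A, which also acts at the G1/S transition, stood at 3.76, 4.33 and 6.68 FPKM in control libraries and 8.33, 8.04 and 7.32 FPKM in OE-labelled libraries. CDC25B stood at 22.7, 23.8 and 22.5 against 30.8, 29.2 and 29.5 FPKM. For both the groups did not overlap, at log2 fold changes of 0.67 (95% interval 0.20 to 1.14) and 0.37 (95% interval 0.13 to 0.61), without passing (limma-trend, Benjamini-Hochberg adjusted p = 0.155 and 0.130). CDC25C had 0.07, and control replicate 3 at 5.60 FPKM lay below the 8.09 to 9.77 FPKM of the other 5 libraries. Without that library the log2 fold change of CDC25C was -0.18.

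The Aurora and Polo kinases did not pass, and their log2 fold changes lay from 0.01 to 0.14. AURKA, the spindle pole kinase, stood at 37.2, 47.4 and 45.4 FPKM in control libraries and 40.9, 45.1 and 43.9 FPKM in OE-labelled libraries, a log2 fold change of 0.01 with a 95% interval of 0.833-fold to 1.21-fold. PLK1, the Polo kinase, stood at 56.1, 60.1 and 45.0 against 60.5, 61.4 and 54.9 FPKM, a log2 fold change of 0.14. AURKB, the catalytic subunit of the chromosomal passenger complex, had 0.04, and its partners BIRC5 (survivin) and CDCA8 (borealin) had -0.06 and 0.09. Groups overlapped for all 5 of these genes and for TPX2, the activator of AURKA, at 0.11.

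INCENP, the scaffold of the passenger complex, was the exception in this role and also its lowest message. INCENP stood at 1.58, 1.68 and 1.59 FPKM in control libraries and 2.95, 3.08 and 2.55 FPKM in OE-labelled libraries, on 217 or more fragments per library. The groups did not overlap, with a ratio of mean FPKM of 1.77. On the log scale with its added 0.5 FPKM the log2 fold change was 0.67 (SE 0.20, limma-trend, Benjamini-Hochberg adjusted p = 0.145).

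In the spindle checkpoint and its targets, 5 of 9 genes had log2 fold changes below 0 and none passed. The other 4 lay above 0 (44.4%), against 56.8% of all tested genes. MAD2L1, which encodes MAD2, the inhibitor that binds CDC20, had the lowest log2 fold change of the 42. MAD2L1 (ENSG00000164109, chromosome 4, 120055623 to 120066858, hg38) stood at 45.9, 40.5 and 54.8 FPKM in control libraries and at 27.4, 26.7 and 38.3 FPKM in OE-labelled libraries. Replicate 3 was highest in both groups, and the groups did not overlap. The log2 fold change was -0.61 (SE 0.17, 95% interval -0.98 to -0.24, limma-trend, Benjamini-Hochberg adjusted p = 0.111). It was called lower in 3 of 19 alternatives: with the replicate number as a block (adjusted p = 0.0358), after removal of the trend on transcript length (-0.83, adjusted p = 0.0377) and with both (adjusted p = 0.0312). PTTG1, securin, stood at 145, 165 and 151 against 140.3, 106 and 126 FPKM, lower in each library, at -0.31 (limma-trend, Benjamini-Hochberg adjusted p = 0.212).

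The checkpoint kinases and their partners showed no shared direction. BUB1, a kinase of the outer kinetochore, had 0.51, with controls spread from 7.79 FPKM in replicate 1 over 12.3 to 16.7 FPKM in replicate 3 and OE-labelled libraries at 16.3, 15.01 and 19.7 FPKM. BUB1B, which encodes BUBR1 of the mitotic checkpoint complex, had 0.31, and BUB3, its WD40 partner, had -0.06. TTK, the kinase MPS1 at the top of the checkpoint, had -0.07. CDC20, the activator of the anaphase-promoting complex and target of MAD2, had -0.09, with 170, 174 and 141 against 156, 146 and 154 FPKM. Groups overlapped for these 5 genes, as they did for ESPL1, separase, at 0.23 and for UBE2C at 0.07. UBE2C reached 465 FPKM in OE-labelled replicate 2 and 285 FPKM in replicate 3, and without replicate 2 its log2 fold change was -0.13.

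Kinetochore genes were split. CENPF, a large outer kinetochore protein of late G2, stood at 8.10, 10.3 and 12.1 FPKM in control libraries and 14.7, 13.5 and 16.5 FPKM in OE-labelled libraries, at 0.54 (SE 0.17, limma-trend, Benjamini-Hochberg adjusted p = 0.150). SPC25, a subunit of the microtubule-binding NDC80 complex, stood at 21.9, 25.7 and 24.4 against 28.7, 27.9 and 30.7 FPKM, at 0.28. Neither passed, although the groups did not overlap for both. Within the same complex NDC80 had 0.33 and NUF2 -0.24, both with overlapping groups. CENPE, the kinetochore motor, had the largest standard error of the 42, at 2.44, 1.12 and 3.18 against 1.11, 1.47 and 2.32 FPKM, with a 95% interval from 0.471-fold to 1.35-fold.

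Of the spindle, midzone and cytokinesis genes, PRC1, the protein that bundles antiparallel microtubules at the midzone, had the smallest p. PRC1 stood at 10.8, 16.2 and 11.4 FPKM in control libraries and 19.0, 21.6 and 18.8 FPKM in OE-labelled libraries. The groups did not overlap, at a log2 fold change of 0.63 (SE 0.17, limma-trend, Benjamini-Hochberg adjusted p = 0.105). Exons of PRC1 share 3181 of its 5523 bases with AC068831.18 on the same strand and 1892 with PRC1-AS1 on the other, which had 0.54 and 0.65. Fragments of PRC1 and these genes could be split between them, and whether counting used strand was not given in the sources at hand. ASPM, a spindle pole protein, had 0.64 on a low level of 2.27 ± 0.805 against 3.80 ± 1.099 FPKM (SD, n = 3 each), with overlapping groups. NUSAP1 and DLGAP5, which bind spindle microtubules, had 0.10 and 0.07. ECT2, which activates RhoA for the cleavage furrow, had 0.18. HMMR, a spindle and hyaluronan-binding protein, had -0.35, with controls at 14.5, 16.8 and 20.75 FPKM and OE-labelled libraries at 10.6, 13.8 and 16.3 FPKM.

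Exons of 12 of the 42 genes overlap exons of another gene, so their values are less certain. In 11 of the 12 a partner lies on the other strand, and in 3, BUB1B, NUSAP1 and PRC1, on the same strand. For NUSAP1, 2938 of 3608 bases are shared with RP11-16O9.3 on the same strand, which had 0.14, and 352 with OIP5 on the other, at 0.04. NCAPG shares 1634 bases with LCORL (0.00), SMC4 1553 with TRIM59 (0.05) and 243 with IFT80 (-0.22), FOXM1 782 with ITFG2 (0.29) and PLK1 553 with CTD-2196E14.5 (-0.03). BUB1B shares 240 bases with PAK6 and 217 with the read-through BUB1B-PAK6, at 0.17 and 0.15. Smaller stretches are shared by NCAPD2 with MRPL51 (-0.07), CDC25C with FAM53C (0.13), CCNA2 with EXOSC9 (0.105) and HMMR with HMMR-AS1 (-0.36). NUF2 shares 5 bases with a noncoding row named RGS5 that was too low to be tested. The coding row of RGS5 (-0.08) overlaps only the span of NUF2, as RHNO1 (0.02) does for FOXM1 and RP11-432B6.3 (-0.19) for SMC4. None of these tested neighbours passed. Fragments of MAD2L1 and CDC20 may also be split with the copies MAD2L1P1 and CDC20P1, which stood at 1.5 to 2.72 and 1.96 to 2.52 FPKM. The other copies found by name stayed at or under 1.51 FPKM.

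Library by library, the 42 genes were lowest in control replicate 1 and highest in OE-labelled replicate 3. The median deviation from a gene's mean over the 6 libraries was -0.09, -0.07 and 0.00 on the log2 scale in control replicates 1, 2 and 3. In OE-labelled replicates 1, 2 and 3 it was 0.06, 0.03 and 0.20. The same medians over all tested genes were -0.01, -0.02 and 0.00 and 0.03, 0.03 and 0.04. Labelled overexpression replicate 3 held the highest value of 19 of the 42 genes, and without it the median log2 fold change was 0.10. Without OE-labelled replicate 2, in which 10 genes had their lowest value, the median was 0.21 and the groups did not overlap upward for 17 genes, against 18.1% of all tested genes. Controls were more spread than OE-labelled libraries for 28 of the 42 genes (66.7%), as for 63.5% of all tested genes.

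**Figure D5:**
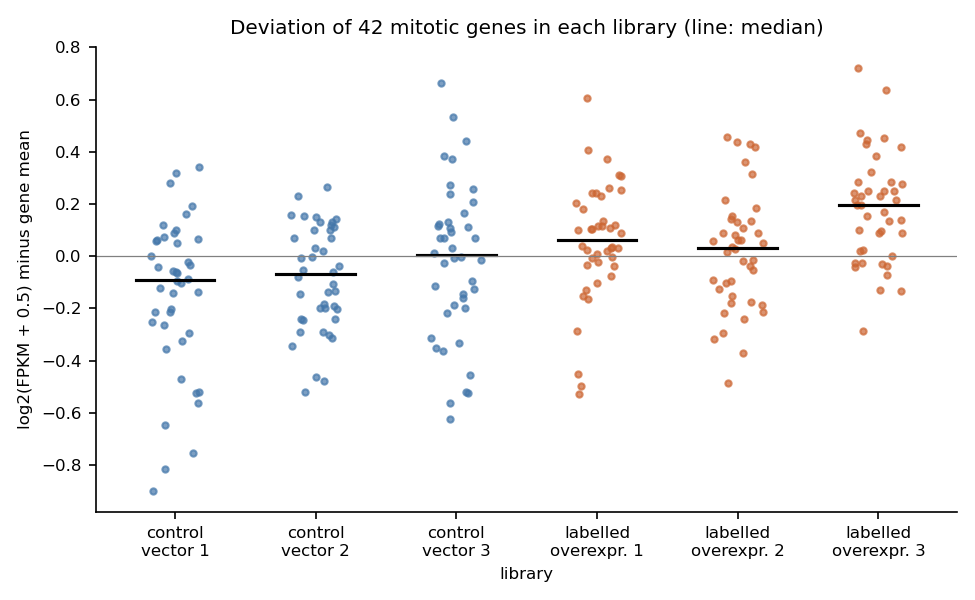
Deviation of log2(FPKM + 0.5) from the gene's mean over the 6 libraries (y axis) for each of the 42 genes (points) in each library (x axis), with the median as a line. The line is lowest at -0.09 in control replicate 1 and highest at 0.20 in OE-labelled replicate 3.

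Fold changes tended to be higher for longer genes in the whole table and among the 42, weakly so by transcript length. The transcript length is the median of a gene's annotated coding transcripts. It can lie far below the deposited length, as for TOP2A (579 against 6374 bases), so the trends on it are approximate. Spearman's rho between log2 fold change and transcript length was 0.22 over all tested genes and 0.26 over the 42, and with the deposited gene length 0.22 and 0.44. These are descriptions across genes, which share the same 6 libraries. The median transcript length was 2019.25 bases in the 42 and 1331 in all tested genes. With the transcript length trend removed, the median log2 fold change of the 42 was 0.05 beside 0.00 over all genes, and 25 of 42 were above 0 against 50.6% of all. Scaled to a common total per library, the groups did not overlap upward for 18 of the 42 (21.3% of all genes) and downward for 0, so that CCNB2, PTTG1 and MAD2L1 overlapped there.

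Beyond the 42 genes, 132 genes of 6 other mitotic lists held 127 tested genes. Of these 1 rose and 0 fell, beside 0.529% and 0.608% of all tested genes. Groups did not overlap upward for 11 of the 127 (8.66%, background 14.2%) and downward for 7 (5.51%, background 9.9%). The median log2 fold change of the 127 was 0.08. FAM83D, which recruits a chromosome-moving kinesin and a kinase to the spindle, rose from 29.8, 34.0 and 27.7 FPKM to 48.3, 46.1 and 44.7 FPKM (log2 fold change 0.60, SE 0.11, limma-trend, Benjamini-Hochberg adjusted p = 0.0443). FAM83D passed in 7 of 19 alternatives, with an adjusted p of up to 0.181, and in 0 of the 6 that leave out a library. In its list of 28 tested spindle, centrosome and cytokinesis genes the median was 0.17. CKAP5, a microtubule polymerase, and GTSE1 had 0.64 and 0.38.

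Of condensin and cohesin genes 0 of 17 passed, with a median of 0.19. SMC1A and SMC3, the paired ATPases of cohesin, stood at 15.9 ± 3.84 against 26.2 ± 0.492 and at 11.05 ± 3.19 against 17.5 ± 1.09 FPKM (SD, n = 3 each), at 0.73 and 0.68. NCAPH2, of condensin II, had -0.33, at 28.2 ± 0.719 against 22.3 ± 0.357 FPKM. The groups did not overlap for these 3 genes, 2 of the 17 higher (11.8%) and 1 lower (5.88%), beside 14.2% and 9.9% of all tested genes.

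Of 33 tested centromere and kinetochore genes 0 passed, with a median of 0.05, and ZWINT, CENPK and CENPL had 0.41, -0.40 and -0.39. For the 17 tested genes of the anaphase-promoting complex and its regulators, 0 passed, 11 lay below 0 and the median was -0.06. The other 6 lay above 0 (35.3%), against 56.8% of all tested genes. ANAPC5, ANAPC16 and ANAPC4, subunits of the complex, had -0.31, -0.33 and 0.55. Among 14 genes of mitotic entry control, 0 passed, with a median of 0.01. CKS1B and CKS2, the small CDK-binding subunits, had -0.32 and -0.30, at 272 ± 23.8 against 218 ± 16.0 and at 462 ± 56.5 against 374 ± 22.3 FPKM (SD, n = 3 each). PKMYT1, an inhibitory kinase of CDK1, had 0.34. Of 18 tested MuvB, DREAM and E2F-family genes 0 passed, with a median of 0.04. E2F7, an atypical repressor E2F, had the largest value at 1.07, with 1.21, 2.63 and 1.33 FPKM in control libraries and 4.38, 3.46 and 4.22 FPKM in OE-labelled libraries (limma-trend, Benjamini-Hochberg adjusted p = 0.0893). E2F3 and LIN52 had 0.52 and -0.41.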

How the data were processed

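RNA was measured in 6 libraries of SH-SY5Y cells, made with the SMART-seq HT kit and read as paired ends, per the labels' protocols. Per the submitters' processing notes, reads were handled with STAR 2.7.9 and featureCounts 2.0.1; the builds listed are GRCh38.p13 and hg38, and no options are given in the sources used here. The authors deposited FPKM per gene; multiplied by gene length in kilobases it summed to 1000000 in each library. Depth was taken as the step of which all values up to 1000 fragments are hundredths, within 0.001 fragments. Of these values 44.2% to 49.0% were whole, so no count model was the main test.

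Genes with at least 1 FPKM in at least 3 libraries were compared on the scale log2(FPKM + 0.5) by limma-trend (limma 3.58.1, R 4.3.3), with Benjamini-Hochberg adjustment over all tested genes at 0.05. The code was tested on simulated data. Named were the 42 genes, up to 3 genes of smallest p and any that passed in each of 6 other mitotic lists, and tested genes overlapping the 42. The members and lists were chosen with earlier results of these data known. Same-numbered libraries had deviations from their group means that correlated at -0.02, 0.11 and 0.12, and differently numbered ones at -0.182 to 0.102. With 3 libraries per group, such values cannot settle whether the numbers pair the libraries. The main test did not pair them. Column names carry tags, LVx1 for control and LVx2 for OE-labelled, that no label explains, and any difference in handling they mark cannot be told apart from the group.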

Additional observations from a re-analysis of the deposited data

How the results depend on the processing

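Of 19 alternatives, 18 were planned and 1, the deposited length in place of transcript length, was added after seeing the data. The count of mitotic genes called higher, 1 as reported, was 0 without a filter, without the trend and with either length trend removed, 2 with a mean of at least 5 FPKM, a common total or array weights, and 0 to 1 with a library left out. The count called lower, 0 as reported, was 1 with the replicate block, with the transcript length trend removed and with both. The replicate block, which matches libraries by number alone, raised the calls over all genes from 159 to 229, of which 131 lower. The median log2 fold change of the 42 was 0.24 with a common total, where the median of all genes was 0.15, 0.052 with the transcript length trend removed, with or without the replicate block, and 0.095 to 0.209 with a library left out. Relative to all genes it lay 0.04 to 0.16 higher in every setting. The groups did not overlap upward for 11 genes as reported (14.2% of all tested genes), 18 with a common total (21.3% of all) and 11 to 17 with a library left out (18.1% to 22.7% of all).

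Over all genes 74 were higher and 85 lower as reported. The counts were 0 and 0 without a filter and without the trend (3538 and 2304 genes at an unadjusted limma p under 0.05), 159 and 171 with a mean of at least 5 FPKM, and 181 and 52 with a common total. Higher calls numbered 149 with array weights and 48 with the deposited length trend removed, and lower calls 48 with limma-voom. With a library left out, 0 to 73 were higher and 0 to 51 lower.

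Of values near 0 that changed sign, a common total gave 0.053 for BIRC5, 0.049 for BUB3, 0.038 for TTK and 0.025 for CDC20, and median-of-ratios factors gave -0.04 for AURKA and -0.009 for AURKB. With the transcript length trend removed, with or without the replicate block, CCNA2 had -0.003, AURKA -0.075, TPX2 -0.048, CDCA8 -0.014 and ESPL1 -0.011, and AURKA had -0.012 with the deposited length. With a library left out, AURKA ran from -0.099 to 0.073, AURKB from -0.053 to 0.093, CDC25C from -0.18 to 0.196, BUB3 from -0.154 to 0.007, TTK from -0.192 to 0.023, UBE2C from -0.126 to 0.226, DLGAP5 from -0.079 to 0.192 and ECT2 from -0.006 to 0.408. The cause of these changes was not tested. INCENP and CENPE had the fewest fragments in a library, 217 and 298, with standard errors of 0.20 and 0.34. BUB1, with at least 1937 fragments per library, had 0.24.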
